A study of Mus musculus with 15 samples.

Results

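The MYC family and the partners of its MAX network were followed through 12 medulloblastomas and 3 normal mouse cerebella. Probes were assigned to the 9 genes Mycn, Myc, Mycl, Max, Mxd1, Mxd3, Mxd4, Mxi1 and Mnt by their RefSeq transcript accession, which gave 13 of the 41098 probes analysed: 3 for Myc, 2 each for Mycn and Mxd3 and 1 for each of the others. All 9 genes passed the filter on dim probes, and none of their probes was saturated on any array. RNA of each tissue had been labelled with Cy3 and hybridised to its own Agilent mouse array. The tumours, cerebellar cancers of Ptch1+/- mice on a C3B6F1 background, are divided by the labels into R-type and S-type, letters that the labels do not explain. R-type tumours came from mice given 1.5 Gy (MB10 to MB12) or 0.2 Gy of X-rays (MB7 to MB9), and S-type tumours from mice given 0.2 Gy (MB4 to MB6) or 0 Gy (MB1 to MB3), with 3 tumours in each group. Exposure was on postnatal day 1 and animals were followed until moribund. The 3 cerebella came from unirradiated animals whose genotype and strain the labels do not give. All animals were female except the male that carried MB6. Ages carry no unit in the labels. They spanned 87 to 127 among carriers of R-type tumours, 128 to 173 among carriers of S-type tumours and 103 to 113 among animals with normal cerebella, so that age and tumour type cannot be told apart. No group combined S-type with 1.5 Gy or R-type with 0 Gy.

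MYC proteins are transcription factors that bind DNA only when paired with MAX, and MYC:MAX pairs activate genes of growth, ribosome production and metabolism. MXD proteins, MXI1 and MNT compete for MAX, bind the same E-box sequence and recruit the SIN3 corepressor, so that the network balances activation against repression. In the developing cerebellum, Mycn is induced by sonic hedgehog in granule neuron precursors, the cells from which Ptch1-mutant medulloblastomas arise, and Mxd3 is the MXD member linked to proliferating rather than differentiating cells.

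The bases before the start site of 5 of the genes are shown, 3 because they hold the E-box that the network binds and Mycn and Mxd3 because the results turn on them. RefSeq windows of build GRCm38.p6, 250 bases before to 50 after a start site, were at hand for 8 of the 9 genes, and Myc had no entry. They were searched on both strands for the E-box CACGTG, for E2F motifs (TTTCCCGC, TTTGGCGC, TTTCGCGC or TTTGCCGC) and for the GLI motif GACCACCCA. For Mycn and Mxd3 the 250 bases before the start site are printed, and for Max, Mxd4 and Mnt the surroundings of the E-box, 5′ to 3′ on the strand of the gene, with matches in capitals.
Mycn, chr12:12941837-12942086, minus strand: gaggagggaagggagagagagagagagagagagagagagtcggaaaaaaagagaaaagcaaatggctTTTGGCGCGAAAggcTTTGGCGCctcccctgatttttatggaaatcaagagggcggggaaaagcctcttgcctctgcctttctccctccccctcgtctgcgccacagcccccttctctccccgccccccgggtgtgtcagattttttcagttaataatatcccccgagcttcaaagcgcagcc
Mxd3, chr13:55329732-55329981, minus strand: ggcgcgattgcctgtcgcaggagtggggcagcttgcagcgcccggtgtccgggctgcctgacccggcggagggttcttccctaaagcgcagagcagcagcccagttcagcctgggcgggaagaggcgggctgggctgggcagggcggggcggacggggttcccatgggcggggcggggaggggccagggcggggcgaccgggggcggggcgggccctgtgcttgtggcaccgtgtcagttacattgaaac
Max, chr12:76962246-76962276, minus strand: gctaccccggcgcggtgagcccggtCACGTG
Mxd4, chr5:34187899-34187954, minus strand: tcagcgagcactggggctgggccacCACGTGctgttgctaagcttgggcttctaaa
Mnt, chr11:74830776-74830831, plus strand: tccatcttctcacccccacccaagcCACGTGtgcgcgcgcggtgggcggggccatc
An E-box began 3 bases before the start site of Max, at −219 in Mxd4 and at −123 in Mnt, where −1 is the last base before the start site. Of all 32851 mouse windows of this length, 7.15% held an E-box. The Mycn window held 3 E2F matches, beginning at −183, −179 and −168, of which the first and second overlap on opposite strands and merge into 1 run of capitals; 2.26% of all windows held an E2F match. No motif was found in the windows of Mxd3, Mycl, Mxd1 or Mxi1, and no GLI match, present in 0.253% of all windows, in any member. These matches are letters in a window and not shown sites.

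The 75th percentile of the processed signal, to which each array was scaled, was 1183.9 to 1366.6 in R-type tumours, 1237.4 to 1611.1 in S-type tumours and 1518.4 to 1563.6 in normal cerebella, and 59.1% to 66.5% of probes were well above background. Levels below are log2 signals relative to that percentile, and differences are log2 differences between group means for 1 probe. The targeted gene, Ptch1, which encodes the receptor that restrains hedgehog signalling, was at −3.16 to −2.71 in R-type tumours, −2.08 to −1.46 in S-type tumours and −3.33 to −3.03 in normal cerebella. The part of Ptch1 that its probe covers was not examined here, so its level does not check the mutant allele. Markers of dividing cells summed to 6.87 to 7.26 in R-type tumours and 6.69 to 7.15 in S-type tumours, against 3.09 to 3.19 in normal cerebella. Markers of Purkinje cells summed to 0.66 to 1.08 in R-type tumours, 0.77 to 1.53 in S-type tumours and 7.56 to 7.68 in normal cerebella. In whole tissue, fewer cells of a type and less RNA per cell cannot be told apart.

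Mycn, Myc, Mycl and Mxd3 were far higher in tumours than in normal cerebellum, while Max and Mxd4 were lower. Of the 9 genes, 7 passed the test of limma with Benjamini-Hochberg adjustment over all 21661 tested genes at 0.05, with 5 higher and 2 lower. The higher members include Mxd3, which met the filter on dim probes through the tumour arrays alone. Over all genes 78.9% passed, 43.5% higher and 35.4% lower, so that the count of members passing is near that of genes in general. The differences of the 3 MYC paralogs were 5.34 to 6.30 on the log2 scale. The median difference was 0.22 over the 9 members and 0.136 over all tested genes. Tumour and normal values did not overlap for 6 members, as for 65.6% of all tested genes.

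Mycn, the MYC paralog induced by hedgehog signalling, had levels of 4.92, 4.76 and 4.99 in R-type tumours at 1.5 Gy, 4.57, 4.68 and 4.74 in R-type tumours at 0.2 Gy, 4.58, 4.73 and 4.57 in S-type tumours at 0.2 Gy and 4.55, 4.65 and 4.77 in S-type tumours at 0 Gy, against −1.55, −1.55 and −1.67 in normal cerebella. All 12 tumours lay close together and far above the cerebella. The difference was 6.30 (SE 0.0704, adjusted p = 1.56e-14), a 78.7-fold higher signal in tumours. The other Mycn probe gave a difference of 6.26, with 2 of the 3 cerebella well above background.

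Myc, the paralog found in most dividing cells, had levels of 2.01, 1.98 and 1.90 in R-type tumours at 1.5 Gy, 1.97, 1.78 and 1.96 in R-type tumours at 0.2 Gy, 2.42, 2.27 and 2.11 in S-type tumours at 0.2 Gy and 2.36, 1.97 and 2.71 in S-type tumours at 0 Gy, against −4.00, −3.67 and −3.89 in normal cerebella. Every tumour was above every cerebellum by more than the spread of either group. The difference was 5.97 (SE 0.127, adjusted p = 1.52e-12), or 62.8-fold. This probe was spotted 10 times on each array, and the spots of an array had an SD of 0.0399 to 0.0579 in tumours and 0.0842 to 0.145 in normal cerebella. The other Myc probes gave differences of 5.94 and 2.77, so that the probes agreed in direction and disagreed in size.

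Mycl, a paralog first described in lung cancer, ranged from 1.33 to 1.87 with a median of 1.64 over the 12 tumours, against −3.73, −3.60 and −3.81 in normal cerebella. The difference was 5.34 (SE 0.101, adjusted p = 5.92e-13), a 40.6-fold higher signal in tumours. The 3 MYC paralogs were thus all higher in tumours, each in 12 of 12.

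Max, the obligate partner of MYC and MXD proteins, went the other way. Its level ranged from 3.54 to 3.82 with a median of 3.67 over the tumours, against 4.56, 4.52 and 4.70 in normal cerebella, and no tumour reached a cerebellum. Max fell by 0.91 (SE 0.0661, adjusted p = 6.47e-08), so that its signal was 1.88-fold lower in tumours.

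Among the antagonists, Mxd3 rose and Mxd4 fell. Mxd3 was well above background on all 12 tumour arrays and on no normal array, so it entered the test through the tumours alone. Its fitted difference of 7.48 and its call rest in part on background signal in normal cerebella, and no p-value is given. As a bound, its signal was at least 74.8-fold higher in tumours. The bound sets each normal array at the dimmest signal that still counted as well above background there. Mxd4, an MXD member linked to differentiated cells, ranged from −0.76 to −0.28 with a median of −0.60 in tumours, against 0.03, 0.09 and 0.14 in normal cerebella. It fell by 0.62 (SE 0.102, adjusted p = 1.19e-04), or 1.54-fold, without overlap. Mnt, the most widely expressed antagonist, ranged from 2.38 to 2.76 in tumours and from 2.25 to 2.46 in normal cerebella, and these ranges overlapped. Its difference of 0.22 (SE 0.0736, adjusted p = 0.0152) passed but lay near the median of all genes, and without scaling between arrays it was 0.05 (adjusted p = 0.709), while without the third normal cerebellum it was 0.17 (adjusted p = 0.101). Mxi1, an antagonist named for its interaction with MAX, differed by 0.12 (95% interval −0.013 to 0.251, adjusted p = 0.0894). Mxd1, the first described MXD protein, differed by 0.03 (95% interval −0.337 to 0.393, adjusted p = 0.884), and its levels were most spread in S-type tumours at 0 Gy, at −3.85, −4.19 and −3.25. For Mxi1 and Mxd1 the tumours and cerebella overlapped.

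**Figure D1:**
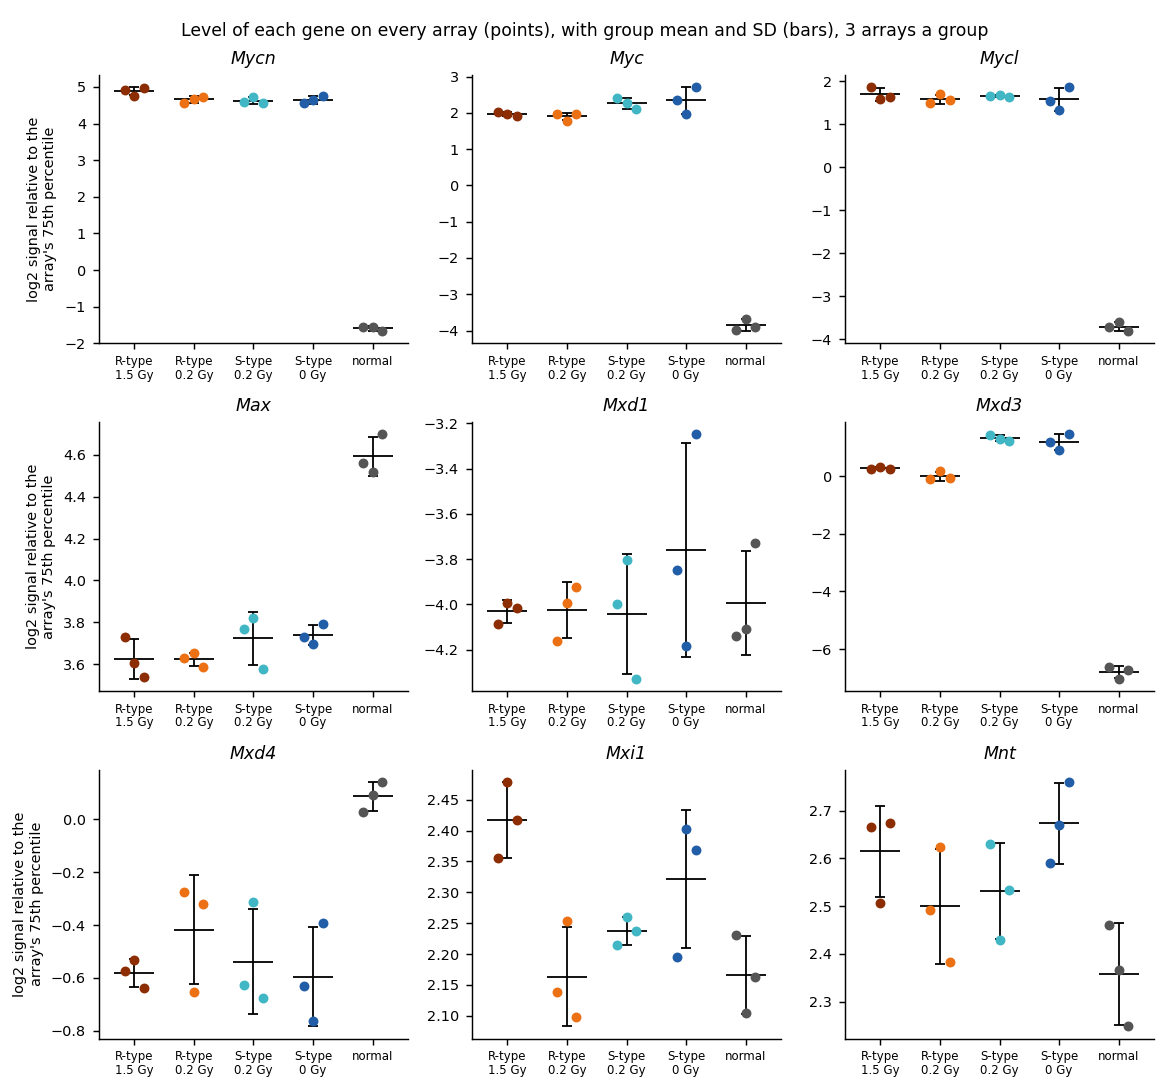
Level of each of the 9 genes on every array, as log2 signal relative to the array's 75th percentile, with panels on their own axes, points for arrays and bars for the group mean and SD of 3 arrays. In the Mycn, Myc, Mycl and Mxd3 panels all 12 tumours sit above the 3 normal cerebella, in those of Max and Mxd4 they are lower, and for Mxd3 the 6 R-type tumours also sit under the 6 S-type tumours.

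Each tumour group was also set against the same 3 normal arrays, so that these comparisons are not independent. In R-type tumours at 1.5 Gy 8 members passed, beside 74.6% of all genes. In R-type tumours at 0.2 Gy 6 members and 74.1% of all genes passed, in S-type tumours at 0.2 Gy 6 members and 73.9%, and in S-type tumours at 0 Gy 7 members and 74.2%. Mycn was higher than in normal cerebellum by 6.48 in R-type tumours at 1.5 Gy, 6.25 in R-type tumours at 0.2 Gy, 6.22 in S-type tumours at 0.2 Gy and 6.25 in S-type tumours at 0 Gy. Max differed by −0.97 in both R-type groups, −0.87 in S-type tumours at 0.2 Gy and −0.85 in S-type tumours at 0 Gy. The bound for Mxd3 was at least 55.8-fold in R-type tumours at 1.5 Gy, 46.3-fold in R-type tumours at 0.2 Gy, 115-fold in S-type tumours at 0.2 Gy and 105-fold in S-type tumours at 0 Gy. Mnt passed in R-type tumours at 1.5 Gy (0.26, adjusted p = 0.0251) and S-type tumours at 0 Gy (0.32, adjusted p = 0.00866), and Mxi1 in R-type tumours at 1.5 Gy (0.25, adjusted p = 0.0101). Without scaling between arrays the differences in R-type tumours at 1.5 Gy turned to −0.04 for Mnt and −0.05 for Mxi1 and did not pass, and Mnt in S-type tumours at 0 Gy did not pass either (0.21, adjusted p = 0.197). Mnt in R-type tumours at 1.5 Gy also lost its call with quantile normalization (adjusted p = 0.0835), without a filter on dim probes (adjusted p = 0.0538) and without normal cerebellum 2 or 3, MB10 or MB12 (adjusted p = 0.0523 to 0.1). That a gene passed in 1 group and not in another is not a test of a difference between the groups.

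**Figure D2:**
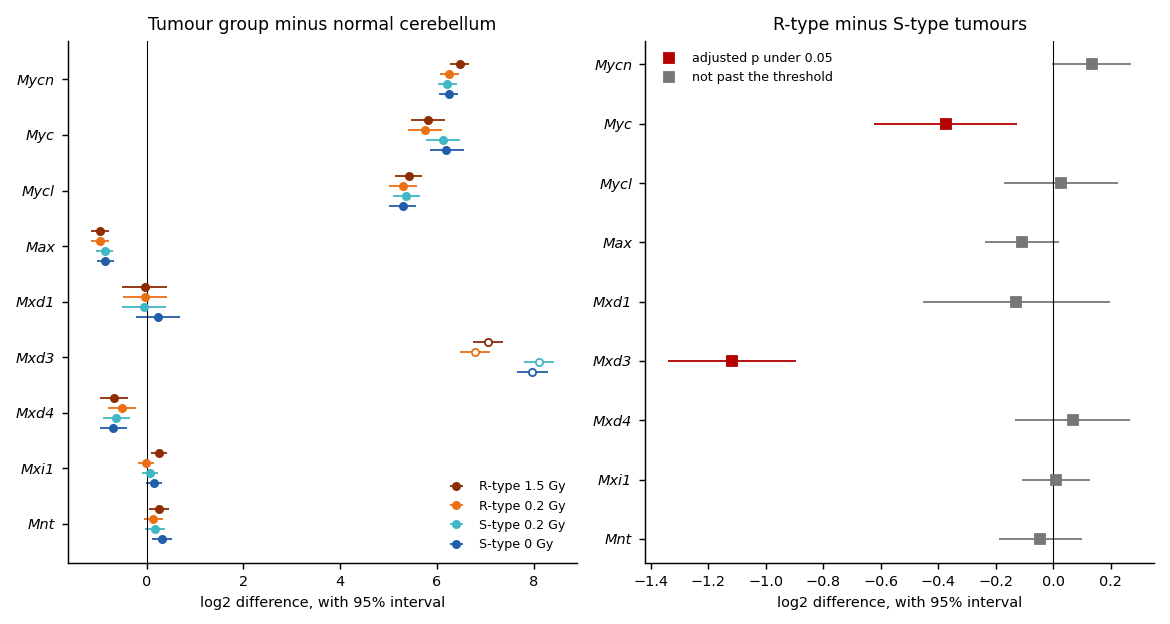
Left, log2 difference between each tumour group and normal cerebellum for the 9 genes, and right, between R-type and S-type tumours, as points with 95% intervals; open circles mark Mxd3, whose normal arrays were not above background. Mycn, Myc, Mycl and Mxd3 lie 5.29 or more above 0 in all 4 groups, and on the right Mxd3 lies at −1.12 and Myc at −0.37 while the other 7 genes did not pass.

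The comparison of the tumour types asks whether the network differs between R-type and S-type medulloblastomas. Mxd3 was lower in R-type tumours, Myc was slightly lower, and the other 7 genes did not pass. Over all genes 21.0% passed, 10.9% higher and 10.1% lower, so that 2 of 9 members passing, both lower, is near the share of all genes, and the members had a median difference of −0.045 beside 0.0207 for all genes. Mxd3 had levels of 0.27, 0.31 and 0.24 in R-type tumours at 1.5 Gy and −0.11, 0.19 and −0.08 in R-type tumours at 0.2 Gy, against 1.44, 1.29 and 1.23 in S-type tumours at 0.2 Gy and 1.18, 0.91 and 1.45 in S-type tumours at 0 Gy. The highest R-type tumour was below the lowest S-type tumour. Mxd3 fell by 1.12 in R-type tumours (SE 0.102, adjusted p = 5.13e-05), or 2.17-fold, and its second probe gave −1.11 (adjusted p = 0.0153). It was the only member whose types did not overlap, as was the case for 9.34% of all tested genes, and the difference lay between −1.37 and −0.81 within each of the 4 array slides.

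At the dose the types shared, 0.2 Gy, 4.77% of all genes passed and Mxd3 was the only member to do so, with −1.32 (SE 0.144, adjusted p = 5.35e-04), or 2.50-fold lower in R-type tumours, though its second probe gave −1.28 with adjusted p = 0.0803. Myc at 0.2 Gy gave −0.37 (95% interval −0.718 to −0.015, adjusted p = 0.209). The groups at this dose did not overlap for Mxd3 and Myc, as for 32.5% of all tested genes. The other 7 members gave 0.03 for Mycn, −0.07 for Mycl, −0.10 for Max, 0.02 for Mxd1, 0.12 for Mxd4, −0.07 for Mxi1 and −0.03 for Mnt at 0.2 Gy, R-type minus S-type. With all 12 tumours Myc averaged 1.93 ± 0.0818 in R-type and 2.31 ± 0.258 in S-type tumours (SD, n = 6 each), and MB2 overlapped with the R-type tumours. Its difference of −0.37 (SE 0.114, adjusted p = 0.0375) was 1.30-fold lower in R-type tumours. The Myc call held when normal cerebellum 1 or 2, MB2, MB3 or MB6 was left out and was lost in each of the other 10 of 15 such fits, at adjusted p up to 0.0814. It was also lost without a filter on dim probes (adjusted p = 0.0655) and with the tumour arrays alone (adjusted p = 0.0592). Within slides it lay between −0.83 and −0.03, and its other probes gave −0.40 (adjusted p = 0.0207) and −0.32 (adjusted p = 0.0696).

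The other 7 members did not pass between the types. Without scaling between arrays Max did (−0.33, adjusted p = 0.0162), where the median over all genes was −0.20. Mycn differed between R-type and S-type tumours by 0.13 (95% interval −0.00339 to 0.272, adjusted p = 0.15), Mycl by 0.03 (−0.171 to 0.226), Max by −0.11 (−0.237 to 0.0218) and Mxi1 by 0.01 (−0.107 to 0.129). For Mxd4 the difference was 0.07 (−0.132 to 0.268), for Mnt −0.045 (−0.189 to 0.0989) and for Mxd1 −0.13 (−0.454 to 0.199). Over the 12 tumours the SD of the log2 level was 0.14 for Mycn, 0.15 for Mycl and 0.0917 for Max, 0.61 for Mxd3 and 0.27 for Myc, against a median of 0.26 and quartiles of 0.153 and 0.452 over all tested genes.

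Mxd3 lies on chromosome 13, as does Ptch1, with 46 tested genes between them in the RefSeq gene order. Among the 40 tested genes nearest to Mxd3, 20 on each side, 29 passed as lower in R-type tumours and none as higher. Over all genes 10.1% passed as lower and 10.9% as higher. The differences of 38 of the 40 lay below 0. The median of the 40 was −0.83 (range −1.61 to 0.16), beside −1.12 for Mxd3. The window of 20 was chosen after the value of Mxd3 was seen. The genes next to Mxd3, Prelid1 and Lman2, differed by −0.64 and −0.99. Of the 483 tested genes of the chromosome, with Mxd3 itself set aside, 154 passed as lower and 36 as higher, and the median was −0.29. Ptch1 itself fell by 1.30 in R-type tumours (adjusted p = 5.27e-05). Of all tested genes, 420 had a larger fall between the types than Mxd3. The part that the shared stretch of the chromosome plays in the difference of Mxd3 was not tested.

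**Figure D3:**
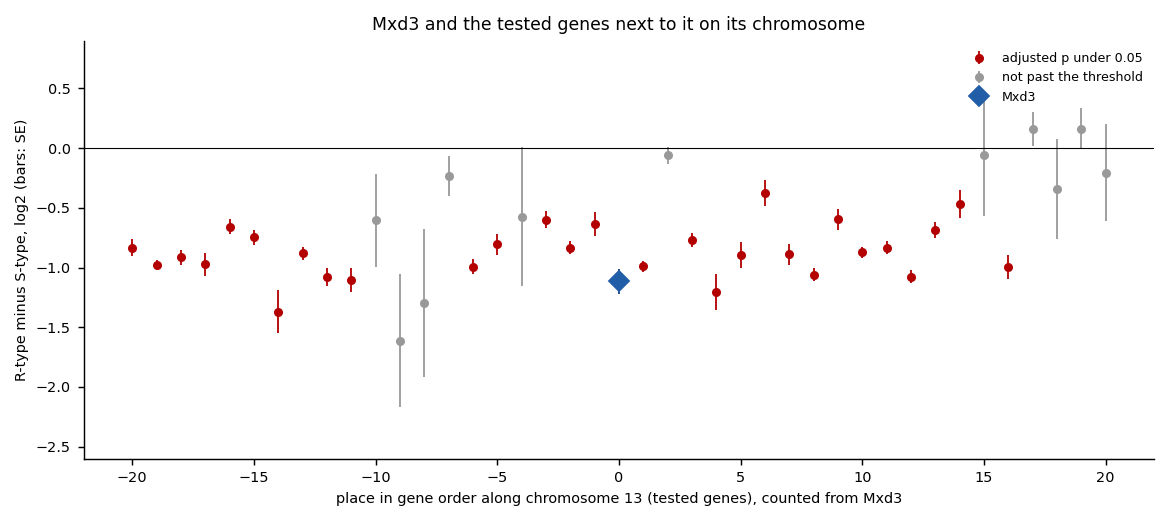
R-type minus S-type log2 difference (bars, SE) of Mxd3 (diamond, −1.12) and of the 20 tested genes on each side of it, in their order along chromosome 13. Of these 40 genes, 29 passed as lower in R-type tumours (red) and none passed as higher.

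No member passed for dose. Between 0.2 Gy and 0 Gy within S-type tumours 0.00462% of all genes passed, and none of the 9 members did. No member had an unadjusted p below 0.05, against 1245 of all 21661 tested genes. The differences at 0.2 Gy less 0 Gy were −0.03 for Mycn, −0.08 for Myc, 0.08 for Mycl, −0.02 for Max, −0.28 for Mxd1, 0.14 for Mxd3, 0.06 for Mxd4, −0.08 for Mxi1 and −0.14 for Mnt. Between 1.5 Gy and 0.2 Gy within R-type tumours 0.0692% of all genes passed. An unadjusted p below 0.05 was found for 1528 of all 21661 tested genes and for 2 of the 9 members. These were Mycn, higher by 0.23 at 1.5 Gy (95% interval 0.0332 to 0.422, adjusted p = 0.635), and Mxi1, higher by 0.25 (0.0866 to 0.42, adjusted p = 0.59). The other 7 differed at 1.5 Gy less 0.2 Gy by 0.06 for Myc, 0.12 for Mycl, 0.0034 for Max, −0.0056 for Mxd1, 0.27 for Mxd3, −0.16 for Mxd4 and 0.11 for Mnt. Mycn, Mxi1 and Mxd3 did not overlap between these doses, as 11.8% of all tested genes did not. Each dose comparison shares its tumours with the type comparison.

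Most genes known as MYC targets were higher in tumours than in normal cerebellum, to be read beside 43.5% higher and 35.4% lower over all genes. Of 17 ribosome biogenesis genes known as MYC targets, 16 passed as higher in tumours and none as lower, with a median difference of 1.54. Fbl, the methyltransferase of ribosomal RNA, was higher by 2.96, Nop58, its partner in small nucleolar particles, by 2.63, Ddx21, a nucleolar helicase, by 1.97 and Gnl3, nucleostemin, by 1.64. Of 24 MYC targets of metabolism and the cell cycle, 20 were higher and 1 lower, with a median of 1.65. Cdk4, a kinase that drives entry into the cell cycle, was higher by 3.78, Ccnd2, its cyclin D2 partner, by 7.61, Apex1, a DNA repair endonuclease, by 3.10 and Impdh2, an enzyme of guanine nucleotide synthesis, by 2.47. Between the types, 6 of the 17 ribosome biogenesis genes passed as higher in R-type tumours and none as lower (median 0.16). Their differences ran from −1.73 to 0.37, and the largest fall did not pass. Of the 24 others 12 were higher and 1 lower (median 0.26). Both lists stand beside 10.9% higher and 10.1% lower over all genes. Nop58 (0.37) and Wdr12 (0.28), both ribosome assembly factors, and Impdh2 (0.39) and Eif4a1 (0.34), an RNA helicase of translation initiation, were higher in R-type tumours at adjusted p of 0.00474, 0.00553, 0.00222 and 0.00514. Ddx18, a nucleolar helicase (0.27, adjusted p = 0.0141), Bop1, a ribosome assembly factor (0.26, adjusted p = 0.0354), and Tert, the catalytic subunit of telomerase (0.39, adjusted p = 0.0129), passed in the same direction. Cdc25a, a phosphatase of the cell cycle, was lower by 0.34 (adjusted p = 0.0173).

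Cofactor counts stand beside 43.5% higher and 35.4% lower over all genes. Among 15 coactivators and chromatin partners of MYC, 11 were higher in tumours and 1 lower, median 0.65. They included Actl6a (2.82), an actin-like subunit of chromatin remodellers, Ruvbl2 (1.94), an ATPase of the same machines, Wdr5 (1.52), a histone methyltransferase subunit that binds MYC, and Hcfc1 (1.20), a chromatin adaptor. Of 8 SIN3 corepressor genes, through which MXD and MNT repress, 6 were higher and 1 lower, median 1.05, with Hdac2, a histone deacetylase, and the scaffold Sin3b both higher by 2.02, the scaffold Sin3a by 1.19 and the histone chaperone Rbbp4 by 1.48. Between the types, counts stand beside 10.9% higher and 10.1% lower over all genes. Of the 8 SIN3 genes, 1 passed as higher in R-type tumours, 1 as lower and 6 did not pass. Sap30, a SIN3 subunit, was higher by 0.59 (adjusted p = 0.00184), and the corepressor Ncor1 was lower by 0.14 (adjusted p = 0.0433). Of the 15 coactivators and chromatin partners, 14 did not pass. Kat2a, a histone acetyltransferase that MYC recruits, was higher in R-type tumours by 0.19 (adjusted p = 0.0216). For Ncor1 and Kat2a the types overlapped. The MLX branch, which runs parallel to MAX and responds to glucose, was listed together with Mga. Of the 3 tested genes of this list none was higher in tumours and 2 were lower, Mlxipl and Mlx. Mlxipl, the glucose-responsive partner, passed as lower, but it was well above background on 1 of 12 tumour arrays and 3 of 3 normal arrays, so no size is given. Mlx was lower by 0.56 in tumours, and by 0.26 in R-type relative to S-type tumours (adjusted p = 0.00805), where the other 2 did not pass. Mga, a MAX partner that also carries a T-box domain, differed by −0.06 (adjusted p = 0.395).

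Regulators of MYC protein stability had no common direction, with 4 of 12 genes higher in tumours, 6 lower and a median of −0.15. The tumour counts given here stand beside 43.5% higher and 35.4% lower over all genes. Aurka, the kinase that shields MYCN protein from degradation, was higher by 6.21, and Axin1, a scaffold in MYC turnover, by 0.59. Fbxw7, the ubiquitin ligase subunit that marks MYC and MYCN for degradation, was lower by 2.13 and Btrc, another ligase subunit, by 1.16. Between the types 11 of these 12 genes did not pass, beside 21.0% passing over all genes. Gsk3b, the kinase that primes MYC for Fbxw7, was lower by 0.22 in R-type than in S-type tumours (adjusted p = 0.0172), although the types overlapped. Of 9 genes described as repressed by MYC, 6 were higher in tumours and 3 lower, with a median of 0.86. Ndrg2 and Ndrg1, named for their repression by MYC, were lower by 2.96 and 2.33, while the cell-cycle inhibitor Cdkn2b was higher by 2.72 and the growth-arrest gene Gas1 by 1.47. Cdkn2b was also lower by 1.07 in R-type than in S-type tumours (adjusted p = 0.00187), although the types overlapped. The other 8 genes described as repressed by MYC did not pass between the types.

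**Figure D4:**
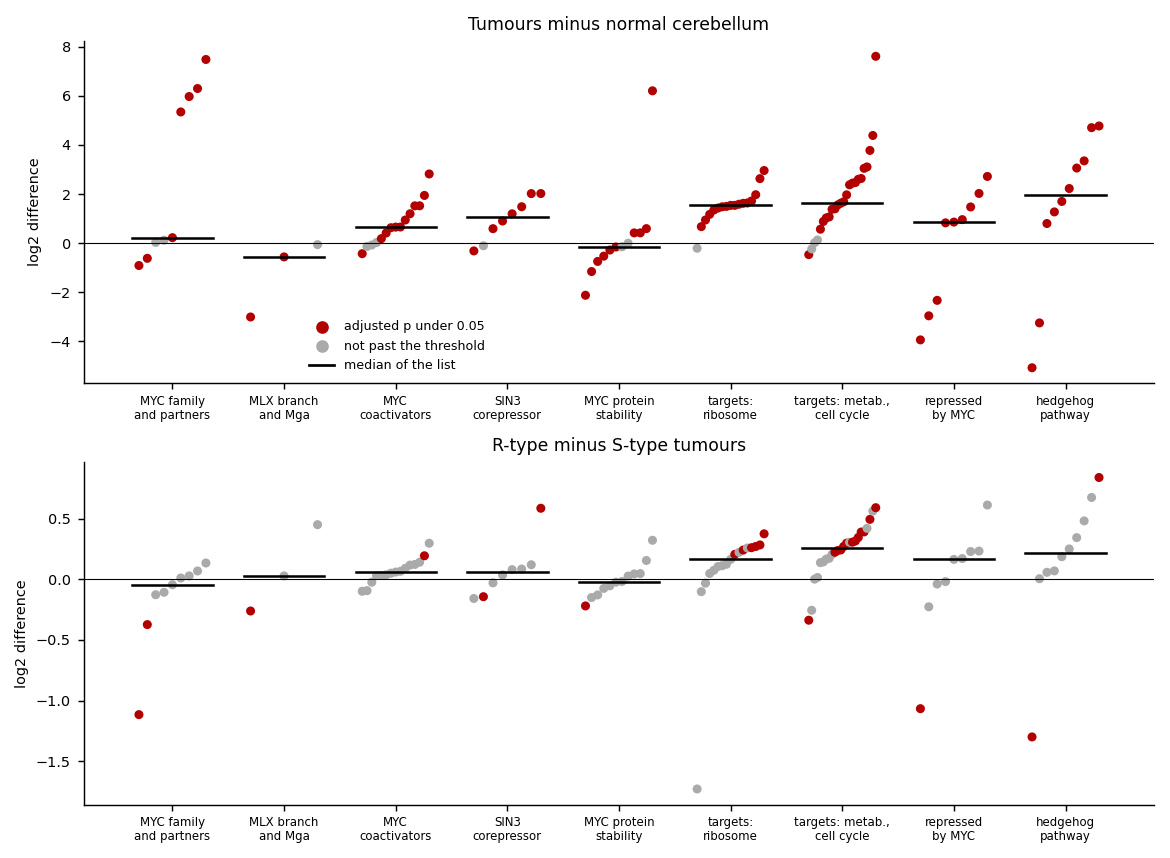
Log2 difference of each tested gene in 9 lists, tumours minus normal cerebellum above and R-type minus S-type tumours below, with red for adjusted p under 0.05 and a bar at the median of each list. Of the ribosome biogenesis targets 16 of 17 are higher in tumours. The MYC family and partners run from −0.91 to 7.48 as fitted. The top value is that of Mxd3, whose normal arrays were not above background.

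Hedgehog signalling acts upstream of Mycn. Of 10 tested genes of this pathway, 8 were higher in tumours and 2 lower, median 1.96, beside 43.5% higher and 35.4% lower over all genes, with the transcription factor Gli2 higher by 4.70, Gli1 by 3.35 and the inhibitor Sufu by 2.22. Between the types 1 of these genes passed as higher in R-type tumours, 1 as lower and 8 did not pass, beside 21.0% passing over all genes. Hhip, a decoy receptor for hedgehog ligands, was higher in R-type than in S-type tumours by 0.84 (adjusted p = 0.0243). Ptch1 was the lower gene. Of 6 markers of dividing cells all were higher in tumours, and 4 of them were not well above background on any normal array. Their median was 8.78 as fitted and 7.48 with those 4 at their lower bound. Of 7 markers of granule neuron precursors 6 were higher, median 6.73. Their summed signal differed far less, at 6.91 to 7.18 in R-type tumours, 7.015 to 7.34 in S-type tumours and 6.65 to 6.82 in normal cerebella. All 5 tested markers of microglia and macrophages were higher, median 2.82. All 6 markers of Purkinje cells and all 6 of mature granule neurons were lower, with medians of −6.16 and −6.28. Of 6 astrocyte and Bergmann glia markers 5 were lower, median −3.54, and of 6 oligodendrocyte markers 5 were lower, median −4.82 as fitted and −4.17 with 1 gene at its bound. The part of cell make-up in the differences of the MYC genes was not tested.

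The genes with log2 patterns closest to those of Mycn, Myc and Mxd3 were found among 11461 genes well above background on all tumours, by the root mean square difference of the 15 mean-centred values. For Mycn they were Ttk (0.142), Cdca7l (0.159) and Ncaph (0.177), for Myc Hmmr (0.155), Cenpk (0.179) and Ms4a7 (0.229), and for Mxd3 Igsf9 (0.363), Cd1d1 (0.368) and Hsd11b2 (0.385). These numbers are distances on the log2 scale over 15 arrays, and the values include the step between tumours and normal cerebella. Ttk, Cdca7l, Hmmr, Igsf9 and Hsd11b2, like Mxd3 itself, were not well above background on any normal array, so their distances and order rest in part on background signal there. Among the genes named for Mycn and Myc, Ttk, Ncaph, Hmmr and Cenpk belong to the machinery of mitosis. Whether the closest genes share a function was not tested. With quantile normalization the closest were Ttk, Kif4 and Aurka for Mycn, Cenpk, Hmmr and Aurka for Myc, and Cd1d1, Igsf9 and Ccnd2 for Mxd3.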

How the data were processed

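RNA of 12 medulloblastomas and 3 normal cerebella was measured on 15 1-colour Agilent arrays, 1 per sample, in 5 groups of 3 taken from the labels. Per the file headers, the authors deposited linear spot intensities after background subtraction and spatial detrending, made per the submitters' processing notes with Agilent Feature Extraction 9.5.1. The authors also deposited a table of log2 values, whose making is not stated. Array-to-array differences in it had correlations of 0.9999 to 1 with those of the scaled log2 signals, and the MB1 and MB2 values of each probe added up to 0, so that its values run in the same direction and are centred on the mean of those arrays. Its column medians were −0.0795 to 0.152. Why those arrays were taken is not stated, and the table was used only as an alternative.

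The log2 processed intensity less the 75th percentile of each array was used, with spots of a probe averaged, and 76 of 41174 probes left out for spots marked as non-uniform or outlying. Of 41098 probes, 24800 were named through RefSeq accessions (17158 symbols). The probe with the highest mean stood for a gene, and 21661 genes with 3 or more arrays well above background were tested with limma 3.58.1 in R 4.3.3 (group means, 10 residual degrees of freedom, two-sided, Benjamini-Hochberg at 0.05). The fit was tested on simulated data. Tables were made with Python 3.11.15. The array annotation and RefSeq table use different builds, so coordinates are given only for the promoter windows. No value columns were left unmapped.

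The members and gene lists were chosen with earlier results of these data known. All 9 members were named in each comparison. From each other list the 4 genes with the smallest adjusted p between tumours and normal cerebella and up to 4 that passed between the types were named (marker lists are given by counts and levels only), with Ptch1 as the targeted gene; 1 gene that this rule takes from the hedgehog list is not reported here. Arrays measure relative signal, and their number limits the precision. The samples are separate animals by label. The p-values set each difference against 1 spread per gene, pooled over the 5 groups. Slide was not in the main fit, so that spread holds differences between animals and between the 4 slides.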

Additional observations from a re-analysis of the deposited data

How the results depend on the processing

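The 81 member results, 9 genes in 9 comparisons, were recomputed under 26 settings, and 2061 values kept their side of the threshold and, where called, their direction, while 21 lost a call, 4 gained one and 2 called values reversed. Among the 2061 were 73 uncalled values that changed sign. Without scaling between arrays Mnt and Mxi1 in R-type tumours at 1.5 Gy versus normal cerebellum turned to −0.04132 and −0.04701, and the median over all genes moved to −0.04 for tumours versus normal cerebellum and to −0.20 for R-type versus S-type. Between the types, Mxd3 was the 1 member passing without a filter on dim probes or with only the arrays compared. It was also the 1 member passing when every probe of a gene had to pass. With probes required above background on all 15 arrays, 8 members were tested, without Mxd3, and the 1 that passed was Myc. Without scaling between arrays Max also passed (−0.33, adjusted p = 0.0162). Members passing were 1 to 2 when 1 array was left out. At 0.2 Gy the members passing were 0 when every probe had to pass, 0 with probes above background on all 15 arrays, where Mxd3 was not tested, and 2 without scaling. Genes passing between the types at 0.2 Gy were 541 without a filter, 2673 without scaling, 456 with only the arrays compared, 454 with slide as a block and 295 to 1404 with 1 array left out. For dose in S-type tumours they were 0 without a filter, without scaling, with only the arrays compared or with slide as a block, 2 with quantile normalization, 3 with the authors' deposited log2 table, with the median over probes or with probes above background on all arrays of a group, and 0 to 17 with 1 array left out. For dose in R-type tumours they were 0 with only the arrays compared and 9 to 159 with 1 array left out. No paired analysis was possible because the numbers in the labels are running numbers that tie no samples together.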
